A study of Mus musculus with 1 sample.

Results

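A set of 10 genes with unlike pooled levels in resting CD4+ and resting CD8+ T cells was followed through the blood T cells of 1 mouse. *Dapl1*, *Slc6a19*, *Lcn4*, *Rgcc* and *Spats2* had the higher level in CD8+ cells, that of *Spats2* through 1 cell. *Igfbp4*, *Pdlim4*, *Tesc*, *Trib2* and *Myo6* had the higher level in CD4+ cells. These 10 genes, of 32285 measured, were chosen from this very difference between the lineages, so their levels in resting cells are a description and carry no test. The mouse had autochthonous small cell lung cancer (SCLC), caused by deletion of Rb1 and Trp53 after Adeno-Cre virus was given into the trachea, on a C57BL/6 background, and it was treated with vehicle (phosphate-buffered saline). Its age and sex are not stated in the labels. T cells were enriched from 150 µl of blood by removal of other cells, and TCR and gene expression libraries were read from the same droplets. The vehicle group is 1 library from 1 mouse, without replicates, and libraries of other mice were not analysed here.

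A cell was taken as resting when its barcode had a TCR clonotype, a UMI total above a limit (the 99th percentile over the 3000 barcodes with most UMIs, divided by 10, passed by 1600 barcodes, the lowest with 1334 UMIs), and no UMI of *Gzma*, *Gzmb*, *Gzmk* or *S100a4*. The granzymes are killing proteases and *S100a4* is a calcium-binding protein of activated and memory cells. A UMI marks 1 captured RNA molecule. Of 763 such cells, 214 held UMIs of *Cd4* and none of *Cd8a* or *Cd8b1*, and 403 held *Cd8a* or *Cd8b1* and no *Cd4*. They carried 212 and 400 clonotypes, none of them shared between the lineages. The labelled cell type was checked on marker genes. *Cd3d*, *Cd3e* and *Cd3g*, the chains of the TCR complex, were found in 184, 199 and 187 of the 214 CD4+ cells and in 379, 393 and 377 of the 403 CD8+ cells, and the *Cd40lg* gene of helper T cells had 107 UMIs in CD4+ cells and 0 in CD8+ cells. Of 5 B cell markers, *Ighm* had 1.58 UMIs per 10000 in CD4+ and 1.48 in CD8+ cells, and 2 of the 5 were at 0 in CD4+ cells. UMIs of 2 or more B cell markers were held by 28 CD8+ cells and 1 CD4+ cell, and the ratios without them are given in the closing section.

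The lineages also differed in depth and in RNA composition. The median cell held 3682 UMIs among resting CD4+ cells (1487 to 10564) and 7816 among resting CD8+ cells (1567 to 17444), and ribosomal protein genes made up 21.4% and 35.0% of the median cell's UMIs. Levels are therefore given as UMIs of a gene per 10000 UMIs of the pooled cells, with exact 95% Poisson intervals. Shares of cells are given after each cell was thinned to 2500 UMIs, which left out 43 CD4+ and 11 CD8+ cells. All intervals cover counting error only, not differences between mice, and they treat the UMIs of 1 cell as independent. The part of depth and ribosomal share in the differences was not tested beyond the alternatives in the closing section.

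CD4+ and CD8+ T cells part in the thymus, where the coreceptor that a cell keeps follows the class of MHC molecule its receptor reads. The transcription factors ThPOK (*Zbtb7b*) and RUNX3 hold the helper and the cytotoxic fate apart. A T cell that leaves the thymus circulates in a resting state, kept by factors such as TCF1, LEF1 and KLF2 and by interleukin-7, and it gives up much of this program when it meets antigen. In these cells the fixed list of 14 lineage genes held 4 genes at least 2-fold higher in CD4+ cells and 6 in CD8+ cells. Of the rest, 3 lay between these limits and 1 had under 50 UMIs. Over all genes with at least 50 UMIs, the shares past 2-fold were 6.9% in CD4+ and 2.87% in CD8+ cells. The list was chosen with earlier results of these data known, so nothing is read from its counts. *Runx3* had 0.418 UMIs per 10000 in CD4+ and 1.57 in CD8+ cells, and *Zbtb7b* had 19 UMIs in CD4+ and 2 in CD8+ cells.

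The promoters of the members differ in CpG pairs, and the sequences are shown because 3 of the genes with CD8 bias had fewer than the other members. In the 250 bases before the RefSeq start (build GRCm38.p6), *Dapl1* had 4 CpG pairs, *Slc6a19* 3 and *Lcn4* 3, against a median of 6 over 32851 promoter windows. These 3 are not unusual among all windows, since 44.4% had no more CpG pairs than *Dapl1* and 37.8% no more than *Slc6a19* and *Lcn4*. The other 7 members had 18 (*Myo6*) to 39 (*Spats2*) CpG pairs, and at least 80.3% of all windows had no more than the lowest of these. The 5 genes with CD4 bias all lay in that range. The window of *Slc6a19* (chr13:73692637-73692886) lies inside the gene as annotated, not at its outer end, and so do those of *Igfbp4* and *Spats2*. Those of *Pdlim4*, *Trib2* and *Myo6* overlap their gene in part. The windows of 4 genes whose RefSeq start is the outer end of the gene are printed 5′ to 3′ on the gene's strand, *Dapl1* at chr2:59484403-59484652 (+), *Lcn4* at chr2:26671283-26671532 (-), *Rgcc* at chr14:79301636-79301885 (-) and *Tesc* at chr5:118027493-118027742 (+). Capitals mark the motif matches described after them.
Dapl1: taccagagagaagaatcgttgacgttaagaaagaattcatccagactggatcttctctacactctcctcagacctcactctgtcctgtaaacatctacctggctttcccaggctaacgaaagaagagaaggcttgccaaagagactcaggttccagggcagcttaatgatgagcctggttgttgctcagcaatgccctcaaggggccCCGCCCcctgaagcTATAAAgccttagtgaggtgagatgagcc
Lcn4: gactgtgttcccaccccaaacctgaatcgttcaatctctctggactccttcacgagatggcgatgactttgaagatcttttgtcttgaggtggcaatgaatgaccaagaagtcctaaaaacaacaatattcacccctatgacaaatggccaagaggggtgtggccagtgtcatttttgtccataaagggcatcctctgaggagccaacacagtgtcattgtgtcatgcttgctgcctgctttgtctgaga
Rgcc: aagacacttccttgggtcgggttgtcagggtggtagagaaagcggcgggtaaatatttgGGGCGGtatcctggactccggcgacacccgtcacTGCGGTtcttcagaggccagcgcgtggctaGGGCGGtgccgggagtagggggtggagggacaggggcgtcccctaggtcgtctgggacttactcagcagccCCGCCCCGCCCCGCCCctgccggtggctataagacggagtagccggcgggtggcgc
Tesc: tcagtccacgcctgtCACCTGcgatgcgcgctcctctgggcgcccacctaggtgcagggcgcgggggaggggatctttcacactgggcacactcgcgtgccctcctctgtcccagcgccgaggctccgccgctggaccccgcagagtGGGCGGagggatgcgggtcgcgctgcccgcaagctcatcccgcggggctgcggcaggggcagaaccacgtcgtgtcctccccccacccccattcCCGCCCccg
The motifs were searched on both strands. The RUNX motif TGTGGT (held by 14.0% of all windows), the TCF/LEF motif CTTTGAT (3.21%) and the GATA motif AGATAA (9.99%) were found in 0 of the 10 windows. Another RUNX motif, TGCGGT (5.10%), stood in the *Rgcc* window 157 to 152 bases before the start. The TATA box letters TATAAA (12.4%) stood in the *Dapl1* window 29 to 24 bases and in the *Igfbp4* window 28 to 23 bases before the start. The KLF/SP motif GGGCGG (32.7%) was in 7 of the 10 windows, 5 times in that of *Rgcc*, where matches share bases, and 2 times in that of *Tesc*. The *Tesc* window also held the E box CACCTG (17.2%) 235 to 230 bases before the start, and the *Spats2* window the ETS motif CCGGAA (12.0%). *Lcn4* and *Slc6a19* held none of the 8 motifs. A match describes letters and no binding.

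Over all genes with at least 50 UMIs in the resting cells together, 518 of 7502 (6.9%) were at least 2-fold higher in CD4+ cells and 215 (2.87%) at least 2-fold higher in CD8+ cells. Of the members, 9 had that many UMIs. Of these, 4 were past 2-fold on the CD4 side and 4 on the CD8 side, and *Rgcc* was not. The 4 on the CD8 side include *Spats2*, with 53 UMIs in CD8+ cells, 48 of them in 1 cell. *Pdlim4* stood just below the minimum with 48 UMIs. Since this contrast chose the members, nothing is read from these counts. The median of all genes was itself 0.29 above 0 on the log2 scale of CD4 over CD8, and 0.08 above 0 when ribosomal protein, mitochondrial and TCR genes were left out of the totals. Under those totals 255 genes (3.40%) were at least 2-fold higher in CD4+ and 311 (4.15%) in CD8+ cells, so the balance of the sides depends on the total used. All members kept their side under both totals.

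**Figure D1:**
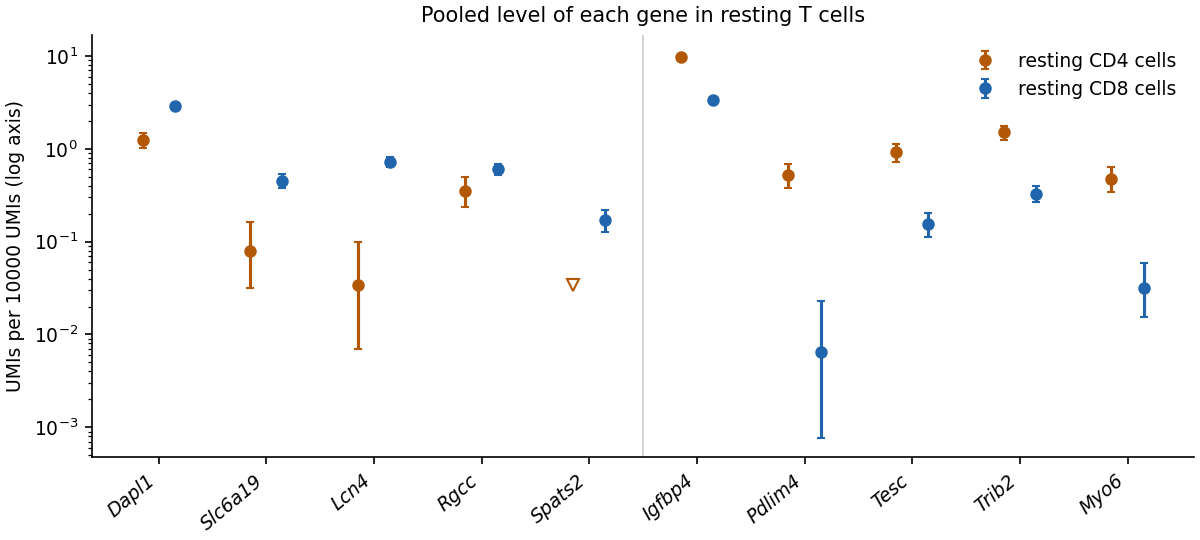
Pooled level of each of the 10 genes in 214 resting CD4+ (brown) and 403 resting CD8+ (blue) cells of 1 mouse, in UMIs per 10000 UMIs on a log axis. Bars are exact 95% Poisson intervals, and the open triangle marks the limit of 3 UMIs where *Spats2* had none. *Igfbp4* was highest in both lineages, at 9.86 and 3.35.

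**Figure D2:**
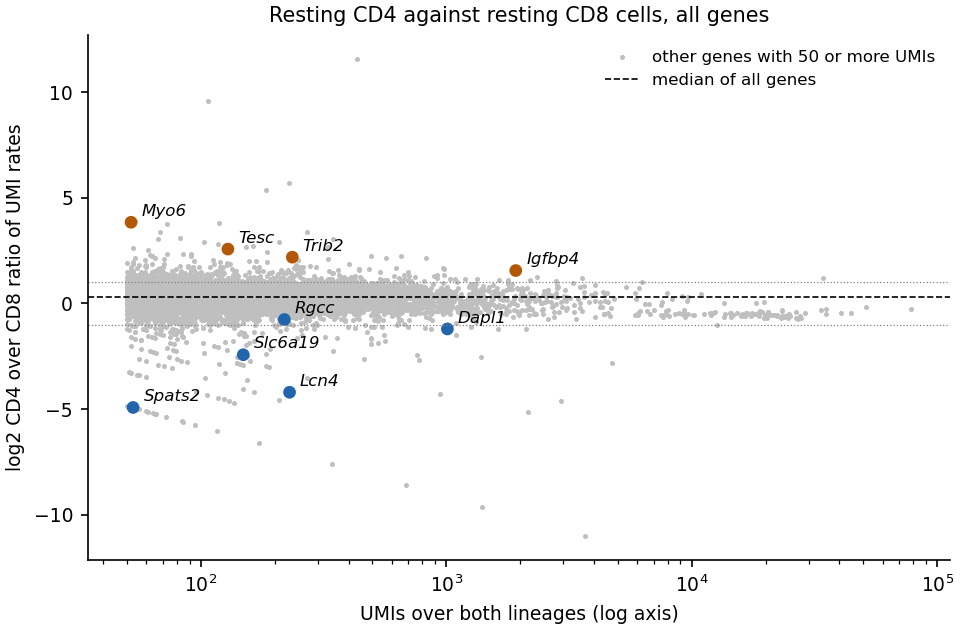
Each point is 1 of 7502 genes with at least 50 UMIs over both lineages (x axis, log), against the log2 ratio of its CD4 over its CD8 level (y axis, with 0.5 UMIs added to each count). Members are coloured and named, the dashed line is the median of all genes at 0.29, and dotted lines mark 2-fold. *Rgcc* lies between the 2-fold lines, and *Pdlim4*, with 48 UMIs, is not plotted.

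Among the genes with CD8 bias, *Dapl1*, a small relative of death-associated protein (chr2:59484653-59505020), was the most abundant. It had 901 UMIs in resting CD8+ cells and 110 in resting CD4+ cells, or 2.88 (2.70 to 3.08) and 1.24 (1.02 to 1.50) per 10000, a 2.32-fold difference (1.90 to 2.85). It was shared by many cells of CD8 type and not held by a few, since 35.5% of thinned CD8+ cells (30.7 to 40.4%) and 16.4% of thinned CD4+ cells (11.2 to 22.8%) held a UMI, and the richest CD8+ cell had 22 of the 901. Without thinning the shares were 200 of 403 and 43 of 214 cells. Under a stricter resting rule, which also left out cells with a UMI of memory or regulatory genes and kept 113 CD4+ and 23 CD8+ cells, *Dapl1* was 1.42-fold apart and no longer past 2-fold. Its relative *Dap*, which was not chosen by this contrast, had 0.573 per 10000 in CD8+ and 0.905 in CD4+ cells.

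*Lcn4*, a lipocalin of the family of small ligand-binding secreted proteins (chr2:26667674-26671282), was nearly restricted to the CD8 lineage among these cells. There were 227 UMIs in CD8+ and 3 in CD4+ cells, 0.726 (0.635 to 0.827) and 0.0339 (0.0070 to 0.0992) per 10000, and the ratio of 21.4 has a wide counting interval (7.23 to 105) because it rests on 3 UMIs. It was found in 136 of 403 CD8+ cells and in 3 of 214 CD4+ cells, or in 15.6% and 1.75% after thinning, and no CD8+ cell held more than 6 UMIs. Over the alternatives the ratio ran from 11.1 to 32.4. *Lcn2* and *Lcn3* had 0 UMIs in both lineages, which at a limit of 3 UMIs allows up to 0.00960 per 10000 in CD8+ cells.

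*Slc6a19* encodes the sodium-coupled neutral amino acid transporter B0AT1, known from the brush border of gut and kidney (chr13:73679745-73700780). Its 142 UMIs in CD8+ cells and 7 in CD4+ cells gave 0.454 (0.383 to 0.535) and 0.0792 (0.0318 to 0.163) per 10000, a 5.74-fold difference (2.71 to 14.5). The UMIs were spread over 92 CD8+ cells, at most 6 in a cell. With at least 2 coreceptor UMIs per cell, which left 116 CD4+ and 393 CD8+ cells, the difference was 12.0-fold, the largest of the alternatives. The smallest was 3.86-fold, in thinned cells. The annotated antisense gene *Slc6a19os* overlaps it and had 25 UMIs in CD8+ and 1 in CD4+ cells, and the strand setting of the counting is not given in the sources used here, so reads of the pair may not be fully separated. Of 5 other SLC6 transporters on the list, 4 had at most 2 UMIs in both lineages together. *Slc6a6*, the taurine transporter, had the opposite side, 0.724 in CD4+ and 0.326 per 10000 in CD8+ cells.

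*Rgcc*, a regulator of the cell cycle that binds the mitotic kinase CDK1 (chr14:79288750-79301635), had the smallest difference. It had 188 UMIs in CD8+ and 31 in CD4+ cells, 0.601 (0.518 to 0.694) and 0.351 (0.238 to 0.498) per 10000, a 1.72-fold difference (1.17 to 2.60). After thinning, 13.8% of CD8+ and 6.43% of CD4+ cells held it. Over the alternatives the fold ran from 1.32 with no rule on effector UMIs to 3.22 under the stricter resting rule, which kept 23 CD8+ cells. It was also past 2-fold as the mean over cells (2.01), in thinned cells (2.09) and without cells holding *Ccl5* (2.33).

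*Spats2*, named for its expression in testis (chr15:99125926-99213215), owes its place to 1 cell. Of its 53 UMIs in CD8+ cells, 48 were in a single CD8+ cell, and the other 5 UMIs were in 5 cells. That cell had 8563 UMIs, 2 of *Cd8a*, 10 of *Cd8b1* and 0 of *Ccl5*, a ribosomal share of 43.9% and a clonotype of its own, and it held 2 UMIs each of *Lcn4* and *Rgcc*. Without it the level in CD8+ cells was 0.0160 per 10000 (0.0052 to 0.0374), below the 0.0339 that 3 UMIs would make in the CD4+ cells, where 0 were counted. A lineage difference of *Spats2* was therefore not detectable at this depth once this cell was left out, and the Poisson interval with the cell does not apply, since its UMIs are not independent.

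Among the genes with CD4 bias, *Igfbp4*, a secreted protein that binds insulin-like growth factors (chr11:99040005-99052655), was by far the most abundant of the 10. It had 872 UMIs in CD4+ and 1048 in CD8+ cells, which is 9.86 (9.22 to 10.5) and 3.35 (3.15 to 3.56) per 10000, a 2.94-fold difference (2.69 to 3.22). It was common in both lineages, found in 55.6% of thinned CD4+ cells (47.8 to 63.1%) and 38.8% of thinned CD8+ cells (33.9 to 43.8%), and the difference lay largely in cells with several UMIs. After thinning, 56 of 171 CD4+ cells but 38 of 392 CD8+ cells held 3 or more. None of the 6 other IGF-binding protein genes on the list (*Igfbp1*, *Igfbp2*, *Igfbp3*, *Igfbp5*, *Igfbp6* and *Igfbp7*) had a UMI in either lineage.

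*Pdlim4*, a PDZ and LIM domain protein of the actin cytoskeleton (chr11:54054928-54069032), was almost confined to CD4+ cells in this library. It had 46 UMIs in 25 CD4+ cells and 2 UMIs in 2 CD8+ cells, 0.520 (0.381 to 0.694) and 0.0064 (0.00077 to 0.0231) per 10000, a ratio of 81.3 with a counting interval of 21.3 to 692. After thinning to 2500 UMIs, 0 of 392 CD8+ cells held it (exact interval up to 0.937%), and after thinning to 4000 UMIs 2 of 343 (0.583%, up to 2.09%). The ratio ran from 51.7 to 146 over the alternatives with a UMI in both lineages. Its relatives were not chosen by this contrast. *Pdlim1* had 1.04 in CD4+ and 1.19 in CD8+ cells, *Pdlim2* 0.328 and 0.358, and *Pdlim5* 0.701 and 0.573 per 10000.

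*Myo6*, the unconventional myosin that walks to the minus end of actin filaments (chr9:80164976-80311729), had 42 UMIs in 24 CD4+ cells and 10 UMIs in 8 CD8+ cells. The levels were 0.475 (0.342 to 0.642) and 0.0320 (0.0153 to 0.0588) per 10000, a 14.9-fold difference (7.33 to 33.2), and 1 CD4+ cell held 8 of the 42 UMIs. Without cells holding *Ccl5* the difference was 33.0-fold, which rests on 3 UMIs in CD8+ cells (0.0148 per 10000, 0.0031 to 0.0433). The other myosins on the list were not chosen by this contrast. The class I myosin *Myo1f* was 3.08-fold higher in CD8+ cells, and *Myo1g*, *Myo9b* and *Myh9* were within 2-fold, *Myh9* at 6.86 in CD4+ and 7.00 in CD8+ cells.

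*Tesc* encodes tescalcin, a calcium-binding protein known to bind the sodium-proton exchanger NHE1 (chr5:118027743-118061878). Its 81 UMIs in CD4+ and 48 in CD8+ cells gave 0.916 (0.727 to 1.14) and 0.154 (0.113 to 0.204) per 10000, a 5.97-fold difference (4.12 to 8.71). Platelet markers moved the same way. The 4 markers together had 1.07 UMIs per 10000 in CD4+ and 0.358 in CD8+ cells, none of them at 0, and *Pf4* had 0.351 and 0.179, beside a *Tesc* level of 1.08 (0.222 to 3.14) in platelet barcodes that rests on 3 UMIs. Without the cells that held a platelet marker UMI, which left 183 CD4+ and 350 CD8+ cells, *Tesc* was 5.87-fold apart. In thinned cells it was 3.93-fold apart. The related *Chp1* had 0.520 and 0.528 per 10000. *Trib2*, a tribbles pseudokinase that brings proteins to a ubiquitin ligase (chr12:15791725-15816962), had 133 UMIs in CD4+ and 103 in CD8+ cells, 1.50 (1.26 to 1.78) and 0.329 (0.269 to 0.400) per 10000, a 4.57-fold difference (3.50 to 5.96). It was found in 32.7% of thinned CD4+ cells (25.8 to 40.3%) and 8.93% of thinned CD8+ cells (6.31 to 12.2%). The share in CD8+ cells was close to that in B cells (5 of 61 thinned cells, 8.20%, 2.72 to 18.1%), and the level of all resting CD8+ cells was not told apart from that of B cells (0.215, 0.0865 to 0.443), whereas CD8+ cells without a UMI of a memory-like gene stood above both, as given with that split. Under a stricter resting rule (also no UMI of *Cd44*, *Ly6c2*, *Il2rb*, *Cxcr3*, *Ccl5*, *Nkg7* or *Foxp3*), which left 113 CD4+ and 23 CD8+ cells, *Trib2* was 1.92-fold apart and no longer past 2-fold. Of the relatives of the members that were listed by family name, 20 had under 50 UMIs and 8 were within 2-fold. *Slc6a6* was past 2-fold in CD4+ and *Myo1f* in CD8+ cells. *Slc6a6* was within 2-fold under the total without ribosomal protein, mitochondrial and TCR genes. Over all genes with at least 50 UMIs, 6.9% were past 2-fold in CD4+ and 2.87% in CD8+ cells. The members were chosen for their difference and the relatives were not, so nothing is read from setting them side by side. *Gm5432*, which is annotated over *Trib2*, had 10 UMIs in CD4+ and 5 in CD8+ cells.

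**Figure D3:**
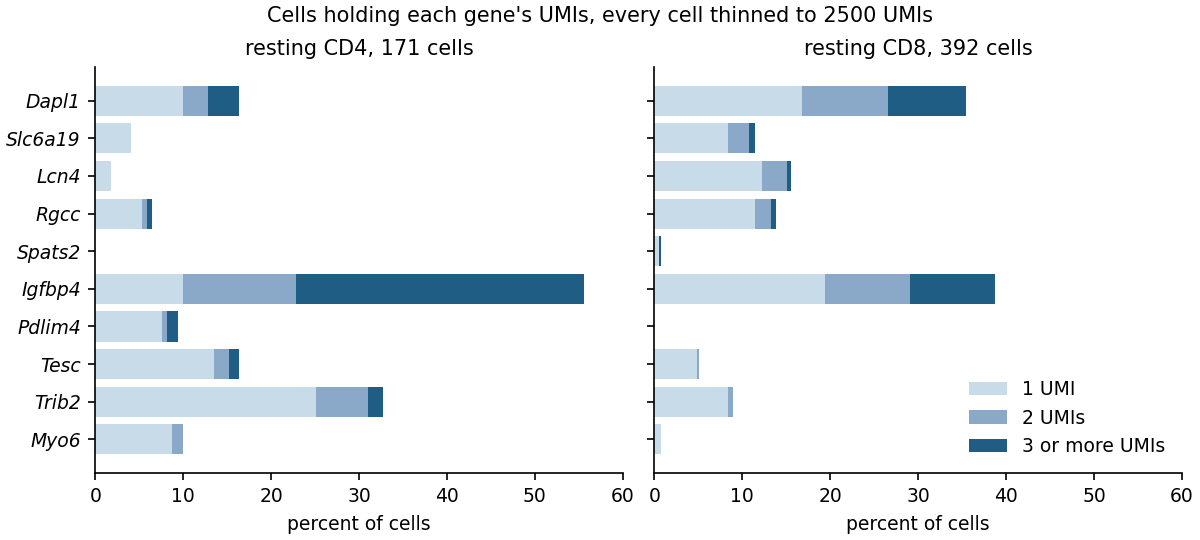
Percent of resting CD4+ cells (left, 171 cells) and CD8+ cells (right, 392 cells) holding 1, 2 or at least 3 UMIs of each gene after every cell was thinned to 2500 UMIs. *Igfbp4* and *Dapl1* are the genes with many cells of 3 or more UMIs, while *Pdlim4* has none in CD8+ cells.

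Barcodes of other cells held few UMIs of the members. The 82 barcodes with 3 or more B cell markers and no CD3 UMI, at a median of 3678 UMIs, close to that of the CD4+ cells, held 7 UMIs of *Trib2*, 2 of *Igfbp4*, 1 of *Dapl1* and 0 of the other 7 members. In the 15 platelet, 21 erythroid and 20 neutrophil barcodes, *Tesc* had the most UMIs, 3 in platelet barcodes, which is 1.08 per 10000 (0.222 to 3.14). RNA outside cells was read from 20532 barcodes with 10 to 50 UMIs. There *Igfbp4* had 1.50, *Dapl1* 1.15 and *Trib2* 0.672 UMIs per 10000, *Slc6a19* 0.276, and the other 6 members at most 0.192. The level of *Dapl1* in resting CD4+ cells (1.24, 1.02 to 1.50) was thus close to its level in that free RNA (0.933 to 1.41), although B cells at like depth held 0.0307 per 10000.

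How the members sat together within a cell was described by counting them in thinned cells. The UMIs of these same resting cells set the side of each gene, so these shares are a description and no support. In resting CD4+ cells, 112 of 171 (65.5%, 57.9 to 72.6%) held more of the 5 genes with CD4 bias than of the 5 with CD8 bias, and 11 (6.43%) the reverse. In resting CD8+ cells, 139 of 392 (35.5%) held more of the CD8-biased genes, 72 (18.4%) more of the CD4-biased genes and 107 (27.3%) no member, so at this depth the 10 genes did not sort single CD8+ cells. Among pairs of members each found in at least 20 thinned cells, *Rgcc* and *Igfbp4* were the 1 pair whose intervals lay apart. In CD8+ cells, *Igfbp4* was found in 32 of 54 cells with *Rgcc* (59.3%, 45.0 to 72.4%) and in 120 of 338 cells without it (35.5%, 30.4 to 40.9%). These genes have opposite lineage bias. The pair was picked from all pairs compared in both lineages, without correction for their number, so nothing is read from it.

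Within resting CD8+ cells the members split by *Ccl5*, a chemokine gene of memory and effector CD8+ cells that the resting rule did not use. This split was chosen after the values had been seen. No *Ccl5* UMI was found in 283 CD8+ cells, 1 or 2 in 35 and at least 3 in 85, and the last were deeper, with a median of 10270 UMIs against 7374. *Rgcc* was at 0.855 per 10000 (0.732 to 0.992) in cells without *Ccl5* and at 0.0237 (0.0029 to 0.0857) in cells with at least 3 UMIs, where 2 UMIs were counted. *Igfbp4* was at 4.80 (4.50 to 5.11) and 0.320 (0.211 to 0.466), and *Slc6a19* at 0.563 (0.464 to 0.676) and 0.0712 (0.0261 to 0.155). *Dapl1* was at 3.78 (3.52 to 4.06) and 1.06 (0.848 to 1.30). *Lcn4* differed least of these, at 0.790 (0.673 to 0.923) and 0.558 (0.410 to 0.742), and was found in 97 of 283 and 28 of 85 cells. *Tesc* was at 0.207 (0.150 to 0.280) and 0.0475 (0.0129 to 0.122), and *Trib2* at 0.415 (0.331 to 0.514) and 0.142 (0.0736 to 0.249). *Myo6* went the other way, at 0.0148 (0.0031 to 0.0433) and 0.0593 (0.0193 to 0.138), on 3 and 5 UMIs. *Rgcc*, *Igfbp4* and *Slc6a19* were thus rare in *Ccl5*-rich CD8+ cells, *Dapl1*, *Tesc* and *Trib2* were lower there, and *Lcn4* was present in both. In the 202 CD4+ cells without *Ccl5*, *Igfbp4* was at 9.34 (8.69 to 10.0), so that its CD4 over CD8 ratio was 1.95 when cells with *Ccl5* were left out of both lineages.

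**Figure D4:**
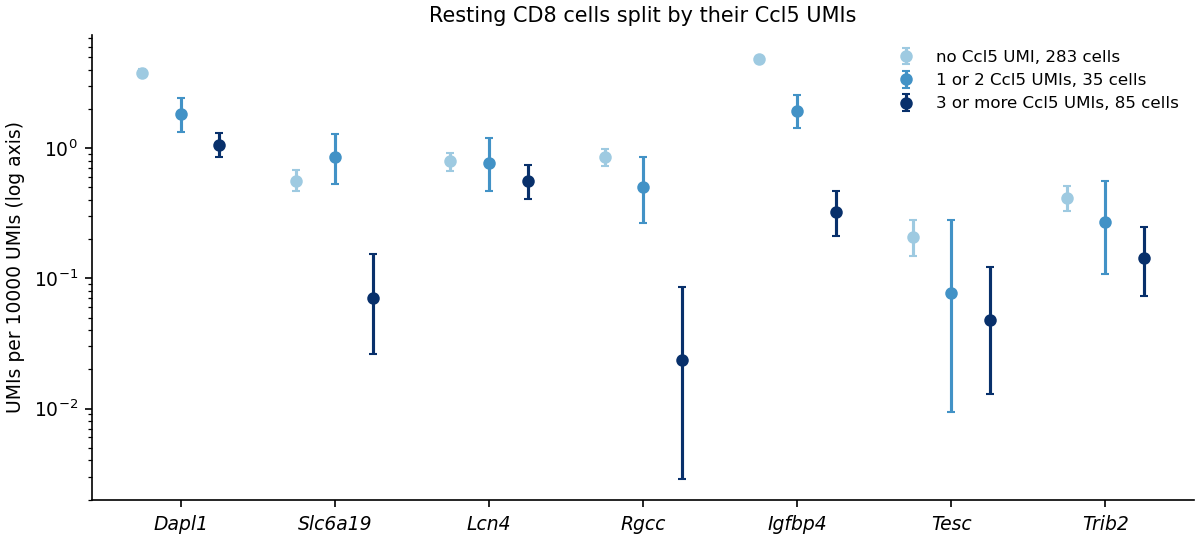
Levels of 7 members in resting CD8+ cells with no *Ccl5* UMI (283 cells), 1 or 2 (35 cells) and at least 3 (85 cells), in UMIs per 10000 UMIs on a log axis with exact 95% Poisson intervals. All 7 are lowest in the cells with most *Ccl5*. Between these and the cells without *Ccl5*, only the intervals of *Lcn4* overlap.

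Other splits also moved members. A UMI of *Ly6c2*, *Il2rb*, *Cxcr3* or *Cd44*, genes of memory-like T cells, was held by 333 CD8+ and 92 CD4+ cells. In CD8+ cells without such a UMI, *Trib2* was at 0.777 (0.524 to 1.11) against 0.266 (0.209 to 0.335) with one, *Igfbp4* at 5.77 (5.04 to 6.58) against 3.01 (2.81 to 3.22) and *Rgcc* at 0.958 (0.675 to 1.32) against 0.551 (0.467 to 0.646). In CD4+ cells, *Dapl1* was at 1.75 (1.40 to 2.17) without and 0.658 (0.434 to 0.957) with one, while *Igfbp4* was at 9.96 and 9.75. The CD8+ cells were deeper, and the part of depth in how many held such a UMI was not tested. *Foxp3*, the gene of regulatory T cells, was found in 7 resting CD4+ cells, and 43 of their 58 *Igfbp4* UMIs were in 1 cell. Cells with a ribosomal share under 10%, 47 CD4+ and 46 CD8+ cells, had less *Dapl1* (0.460, 0.210 to 0.873, against 3.04, 2.85 to 3.25, in CD8+ cells) and less *Igfbp4* (3.94, 2.99 to 5.11, against 11.0, 10.3 to 11.8, in CD4+ cells). *Lcn4* in CD8+ cells was at 0.256 (0.0830 to 0.596) against 0.757 (0.661 to 0.864), which rests on 5 UMIs, and *Igfbp4* there was at 1.84 (1.29 to 2.55) against 3.45 (3.24 to 3.67). *Trib2* went the other way in CD4+ cells, at 2.49 (1.74 to 3.45) against 1.31 (1.06 to 1.60).

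The resting state of both lineages was described by the fixed naive and memory lists, which were chosen with earlier results of these data known. Over all genes with at least 50 UMIs, 6.9% were at least 2-fold higher in CD4+ and 2.87% in CD8+ cells. The share of all genes on the CD4 side is not given here, so nothing is read from the list counts. All 10 naive genes had the higher level in CD4+ cells, *S1pr1*, *Satb1* and *Bach2* by at least 2-fold, with a median log2 ratio of 0.73 beside 0.29 for all genes. With ribosomal protein, mitochondrial and TCR genes left out of the totals all 10 stayed on the CD4 side, and 1 gene, *Satb1*, was past 2-fold. The list median was then 0.52 beside 0.08 for all genes, of which 3.40% were past 2-fold in CD4+ and 4.15% in CD8+ cells. *Il7r* had 14.3 in CD4+ and 9.88 in CD8+ cells. Of the 10 memory genes, 5 were at least 2-fold higher in CD8+ cells, 1 (*Itgb1*) in CD4+ cells and 4 in neither, with a median log2 ratio of -1.11. Under the other total *Itgb1* was no longer past 2-fold, and 6 genes were past it in CD8+ cells. *Ly6c2* had 9.31 per 10000 in CD8+ and 0.373 in CD4+ cells. With all UMIs in the total, the memory genes past 2-fold in resting CD8+ cells were *Ly6c2*, *Il2rb*, *Cxcr3*, *Ccl5* and *Nkg7*. *Cd44*, *S100a6*, *S100a10* and *Lgals1* were within 2-fold. *Nkg7* is also on the lineage list, so these lists do not separate memory state from lineage, and a difference in memory state was not tested. The higher level of these genes in CD8+ cells stands beside each CD4 to CD8 ratio given here, and its part in them was not tested.

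The T cells that the rule left out were not used to choose the members. The non-resting cells, with at least 1 UMI of the 4 effector genes, were 52 CD4+ and 121 CD8+ cells at a median of 4722 and 5682 UMIs. In them, of genes with at least 10 UMIs, 8.94% were at least 2-fold higher in CD4+ and 8.53% in CD8+ cells. Among the members, 6 had that many UMIs, of which 4 were past 2-fold in CD4+ and 2 in CD8+ cells, and a member that reaches the limit through 1 lineage must differ, so the counts are no support. *Dapl1* had 55 UMIs in CD8+ and 0 in CD4+ cells, 6.71-fold higher if 3 UMIs are put in place of the 0. The exact interval of its ratio starts at 5.27-fold. *Lcn4* had 40 and 4 UMIs, 0.499 (0.357 to 0.680) and 0.136 (0.0372 to 0.349) per 10000. *Tesc* had 24 UMIs in CD4+ and 15 in CD8+ cells, a 4.37-fold difference (2.20 to 8.97), and *Trib2* 27 and 5, a 14.8-fold difference (5.60 to 49.1). *Pdlim4* had 5 UMIs in CD4+ and 0 in CD8+ cells.

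By pooled UMIs, *Rgcc* was on the other side in non-resting cells. It had 14 UMIs in 7 CD4+ cells and 10 UMIs in 7 CD8+ cells, 0.478 (0.261 to 0.801) and 0.125 (0.0598 to 0.229) per 10000, or 3.83-fold higher in CD4+ cells (1.58 to 9.63). The shares of cells with a UMI had overlapping intervals, 13.5% of CD4+ (5.59 to 25.8%) and 5.79% of CD8+ cells (2.36 to 11.6%). The *Rgcc* level in CD4+ cells was near that of resting CD4+ cells (0.351, 0.238 to 0.498). In CD8+ cells it was below that of resting CD8+ cells (0.601, 0.518 to 0.694). *Igfbp4* was low in both lineages, 0.375 (0.187 to 0.671) in CD4+ and 0.175 (0.0955 to 0.293) in CD8+ cells, against 9.86 and 3.35 in resting cells. *Slc6a19* had 5 UMIs in CD8+ and 1 in CD4+ cells, *Myo6* 3 and 2, and *Spats2* none, too few for a direction.

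Barcodes above the UMI limit with a CD3 UMI but no clonotype were taken if they held no UMI of the 4 effector genes. Those with UMIs of 2 or more B cell markers were left out. The rest gave a further 83 CD4+ and 143 CD8+ cells. They differ in RNA quality, with a ribosomal share of 2.50% and 2.90% of the median cell's UMIs, against 21.4% and 35.0% in the resting cells, and its part in their levels was not tested. Of genes with at least 10 UMIs, 5.89% were at least 2-fold higher in CD4+ and 12.4% in CD8+ cells. Of the members, 7 had that many UMIs, 2 past 2-fold in CD4+ and 4 in CD8+ cells, and since *Slc6a19*, *Lcn4* and *Rgcc* reached the limit through CD8+ cells alone, these counts are no support either. All 10 had the higher level in the lineage of the resting cells, but for 5 the counting interval of the ratio held 1. Among these 5, *Tesc* had 7 UMIs in each lineage, and *Rgcc* had 1 in CD4+ and 10 in CD8+ cells. *Myo6* had 4 and 2 UMIs and *Spats2* 0 and 3, too few for a direction. The share of all genes that kept their side was not computed, so no support is read from this count. *Slc6a19* had 37 UMIs in CD8+ and 1 in CD4+ cells, and at 0.724 (0.510 to 0.998) per 10000 its level in CD8+ cells was above the 0.454 of resting CD8+ cells, with intervals that overlap. *Trib2* had 57 and 31 UMIs, and at 2.51 (1.90 to 3.25) its level in CD4+ cells was above that of resting CD4+ cells too. *Igfbp4* was lower than in resting cells, at 2.07 (1.52 to 2.75) in CD4+ and 1.17 (0.896 to 1.51) in CD8+ cells, and *Dapl1* had 9 and 41 UMIs, 0.396 (0.181 to 0.752) and 0.803 (0.576 to 1.09).

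**Figure D5:**
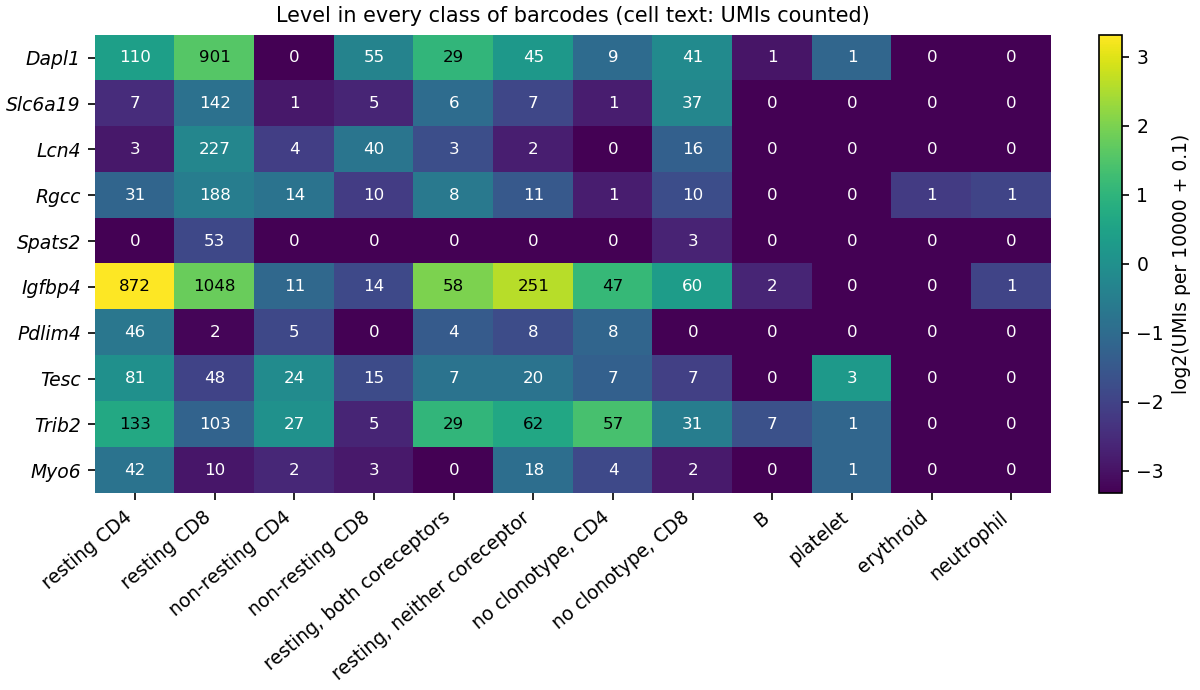
Level of each member (rows) in 12 classes of barcodes (columns), as log2 of UMIs per 10000 plus 0.1 by colour, with the number of UMIs printed in each field. *Igfbp4* and *Dapl1* are higher in resting than in non-resting cells of both lineages, and in the last 4 columns, which hold no T cells, no field has more than 7 UMIs.

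The clonotyped barcodes just under the UMI limit, 11 barcodes of 569 to 1329 UMIs, held 4 UMIs of *Igfbp4*, 1 of *Lcn4*, 1 of *Tesc* and none of the other 7 members.

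Genes outside the 10 were set beside them by fixed rules. The largest CD4 over CD8 ratios among genes with at least 50 UMIs were those of *Cd40lg* (at least 126-fold higher), *St8sia6* (54.0-fold), *Ly6c1* (43.2-fold), *Siah3* (15.6-fold) and *Itgb3* (14.0-fold). On the CD8 side, *Gm44174*, *Plac8*, *Adgrg5*, *S100a8* and *Klrc1* had 0 UMIs in CD4+ cells, and 115 of the 116 UMIs of *S100a8*, a neutrophil gene, were in 1 cell, as with *Spats2*. Over the 12 classes of barcodes, the genes most like the mean log2 level of the CD8-biased members were *D630008O14Rik* (Pearson's r 0.92), *Fam241a* (0.88) and *Gm28935* (0.88). That mean includes *Spats2*, whose 53 UMIs in resting CD8+ cells hold 48 from 1 cell, and the part of this cell in the ranking was not tested. A high r did not mean a CD8 bias in resting cells. *D630008O14Rik* had 0.136 per 10000 in resting CD4+ and 0.163 in resting CD8+ cells, *Gm28935* 0.113 and 0.179, and *Fam241a* 0.362 and 2.38. Those most like the CD4-biased members were *Gm20400* (0.93), *Ldhb* (0.91) and *B630019A10Rik* (0.91). The members themselves had r of 0.70 (*Myo6*) to 0.93 (*Trib2*) with the mean of their side, which they enter. The classes share 1 library and differ in depth, and these values are a description.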

How the data were processed

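T cells enriched from the blood of 1 vehicle-treated mouse were read as paired gene expression and TCR libraries. The values are UMI counts per gene and barcode that the authors made with Cell Ranger (version 4 of the matrix header, mouse build GRCm38) and deposited as an unfiltered matrix of 300213 barcodes and 32285 genes with 12855001 UMIs, beside a table of TCR contigs. The chemistry and the strand setting are not given in the sources used here.

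Barcodes with a UMI total at or above the 99th percentile of the 3000 fullest barcodes divided by 10 were kept (1600, of which 964 had a clonotype, with 11 clonotyped barcodes below). No doublet caller was run. Cells with markers of B cells or neutrophils were left out in an alternative instead. Lineage was read from coreceptor UMIs, and 763 clonotyped cells without UMIs of the 4 effector genes were called resting. Depth per cell is given with the levels.

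Levels were pooled UMIs per 10000 with exact 95% Poisson intervals, shares had exact binomial (Clopper-Pearson) intervals and ratios exact conditional intervals. A count of 0 was read against a limit of 3 UMIs per group. With 1 library there is no test across mice, and no p-value was computed. Genes were called at 2-fold with at least 50 UMIs in both lineages together (10 in the smaller groups). Thinning used 1 draw (seed 1). The ratio script was tested on simulated counts. Promoters were from RefSeq (GRCm38.p6), where 10 of 10 members matched, and motifs beyond the first RUNX, TCF/LEF and GATA letters were added after those had no match.

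The members and lists were chosen with earlier results of these data known. Named genes were the 10 members, relatives by family name, and lists of lineage, naive and memory genes. Added to these were the 5 largest ratios on each side and the 3 genes per side most like the members over 12 classes of barcodes. The largest ratios were taken without TCR, immunoglobulin, mitochondrial, ribosomal protein and coreceptor genes. Alternatives changed the cell limit, lineage and resting rules, total, filter and thinning depth. Python 3.11.15, NumPy 2.4.6, SciPy 1.17.1, pandas 2.3.3 and matplotlib 3.10.9 were used.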

Additional observations from a re-analysis of the deposited data

Results flagged for a closer look

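By pooled UMIs, *Rgcc* had opposite sides in the 2 states. Its CD4 over CD8 ratio was 0.583 in resting cells and 3.83 in cells with an effector UMI, which rests on 14 and 10 UMIs. The difference was not tested, since all cells are of 1 mouse. Among cells with an effector UMI, the shares holding *Rgcc* had overlapping intervals, 5.59 to 25.8% in CD4+ and 2.36 to 11.6% in CD8+ cells. Cells without a clonotype had 1 *Rgcc* UMI in CD4+ and 10 in CD8+ cells.

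A further 116 resting clonotyped cells held no UMI of *Cd4*, *Cd8a* or *Cd8b1* and entered no comparison. Their median depth of 3197 UMIs was below that of the CD4+ cells (3682). *Igfbp4* was at 5.96 UMIs per 10000 (5.25 to 6.75), *Trib2* at 1.47 (1.13 to 1.89) and *Dapl1* at 1.07 (0.780 to 1.43). *Tesc* was at 0.475, *Myo6* at 0.428, *Rgcc* at 0.261, *Pdlim4* at 0.190 and *Slc6a19* at 0.166. *Lcn4* had 2 UMIs and *Spats2* none, which allows up to 0.0713 per 10000. After thinning to 2500 UMIs, 57.6% of 92 such cells held more of the CD4-biased members, 9.78% more of the CD8-biased members and 25% no member. The share with more CD4-biased members was 65.5% in resting CD4+ and 18.4% in resting CD8+ cells, the cells that set the sides. It was 37.5% in non-resting CD4+ and 7.44% in non-resting CD8+ cells, 66.7% in CD4+ cells without a clonotype and 11.5% in B cells. In CD8+ cells without a clonotype, 26.5% held more of the CD4-biased members and 20.4% more of the CD8-biased members. The share thus leaned to the CD4 side in those CD8+ cells too, and the lineage of the 116 cells was not read from it.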

How the results depend on the processing

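The side of 9 members in resting cells was the same under all 15 alternatives, of which 5 were chosen after seeing the data (thinned cells, no cells with B cell or neutrophil markers, no cells with platelet markers, no cells with *Ccl5*, and no cell with most *Spats2*). *Spats2* had no UMI left under the stricter resting rule, which kept 113 CD4+ and 23 CD8+ cells, and was at 0.0160 per 10000 without its 1 rich cell. Under that rule *Pdlim4*, *Tesc* and *Myo6* had UMIs in CD4+ cells only, as had *Pdlim4* in thinned cells. Their side there rests on the lack of a UMI in the CD8+ cells. Over the alternatives that left a UMI in both lineages, the fold of the higher lineage was 1.42 to 2.95 for *Dapl1*, 1.32 to 3.22 for *Rgcc*, 3.86 to 12.0 for *Slc6a19*, 11.1 to 32.4 for *Lcn4*, 1.95 to 3.41 for *Igfbp4*, 51.7 to 146 for *Pdlim4*, 3.93 to 6.66 for *Tesc*, 1.92 to 4.97 for *Trib2* and 11.3 to 33.0 for *Myo6*. *Dapl1* and *Trib2* were no longer past 2-fold under the stricter resting rule (1.42 and 1.92), nor was *Igfbp4* without *Ccl5* cells (1.95). *Rgcc* came past 2-fold under the stricter resting rule (3.22), without *Ccl5* cells (2.33), in thinned cells (2.09) and as the mean over cells (2.01). Without cells holding 2 or more B cell or neutrophil markers, the folds were 2.16 for *Dapl1*, 6.09 for *Slc6a19*, 19.6 for *Lcn4*, 1.67 for *Rgcc*, 2.94 for *Igfbp4*, 75.0 for *Pdlim4*, 6.06 for *Tesc*, 4.46 for *Trib2* and 13.0 for *Myo6*. The cause of these shifts was not tested.

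Genes at least 2-fold higher in CD4+ cells numbered 518, and 891 at a minimum of 20 UMIs, 148 at 200 UMIs, 2110 with at least 1 UMI in each lineage and 255 with ribosomal protein, mitochondrial and TCR genes out of the total. In CD8+ cells they numbered 215, and 444, 52 and 554 under the 3 minimums. In cells without a clonotype 10 members kept their side, 9 with at least 2 coreceptor UMIs and 8 with a ribosomal share of at least 10%. These counts include members with few UMIs, and the share of all genes that kept their side was not computed beside them. Shares of cells moved with the thinning depth (1500, 2500 and 4000 UMIs), in CD8+ cells from 27.8% to 48.1% for *Dapl1*, while the lineage with the higher share stayed for 9 members. *Spats2*, in at most 3 CD8+ cells and 0 CD4+ cells, gave no side. Depth limits *Pdlim4*, *Myo6*, *Lcn4* and *Slc6a19*, which rest on 10 UMIs or fewer in the lower lineage, and *Spats2*, which had none there. No paired analysis was possible because there is 1 library.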
